A study of Homo sapiens with 4 samples.

Results

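The keratin genes were followed in MCF10A cells, a non-tumorigenic human breast epithelial cell line, with and without overexpression of the heat shock transcription factor HSF1. Members were all genes of the human keratin family by symbol (KRT followed by a number and at most the letter A, B or C), without keratin-associated proteins and without pseudogenes, which gave 55 of the 63856 genes in the count table. RNA-seq libraries of 2 groups were compared, with 2 libraries per group. Wild type cells were unmodified, and HSF1-pLVX cells had been transduced with a lentivirus carrying the human HSF1 coding sequence in the pLVX vector and selected with puromycin. Both groups grew in the same medium with horse serum, insulin, hydrocortisone, EGF and cholera toxin. The number of cell clones behind the HSF1-pLVX libraries is not stated, and among the samples analysed here were 0 libraries of cells with the empty vector, so that HSF1, the vector, the transduction and the selection cannot be told apart. The methods call the 2 libraries of a group biological replicates, and how they were grown apart is not given in the sources used here, so p-values measure the spread between these libraries.

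Keratins are the intermediate filament proteins of epithelial cells. Each filament is built from heterodimers of an acidic type I keratin and a basic type II keratin, so the members of the pair must both be present, and an unpaired keratin protein is degraded. Single-layered epithelia carry the simple keratins KRT7, KRT8, KRT18 and KRT19, the basal layer of stratified epithelia and the myoepithelial layer of the breast carry KRT5 with KRT14, KRT15 or KRT17, the layers above carry suprabasal keratins such as KRT10 and, in wounded or fast-growing epithelium, KRT6 and KRT16, and hard keratins such as KRT81 form the hair shaft. The type II genes, together with type I KRT18, lie in 1 cluster on chromosome 12, and the other type I genes lie in a cluster on chromosome 17.

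Libraries held 18688109 to 24184285 counts. HSF1 itself was at 200 and 189 CPM in the wild type libraries and at 982 and 999 in the HSF1-pLVX libraries, where CPM is counts scaled to library size with TMM, and the log2 fold change was 2.35 ± 0.10 (SE, adjusted p = 1.14e-10, edgeR quasi-likelihood test, n = 2 per group). These counts do not separate introduced from endogenous HSF1. All 5 mammary epithelial markers (EPCAM, CDH1, ITGA6, TP63, EGFR) were detected in every library. The change between the groups was broad: of 15830 tested genes, 65.9% were called at an adjusted p of 0.05, 32.7% higher and 33.2% lower, and every keratin count has to be read against these shares.

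Upstream sequences of 3 members are shown, that of KRT5, the abundant type II keratin that was higher in HSF1-pLVX cells, and those of KRT8 and KRT34, which were lower. Each runs from 120 bases before a RefSeq transcription start, the first one listed for the gene, to the base before it. They read 5′ to 3′ on the gene's own strand (minus in each case, GRCh38.p14), at chr12:52520395-52520514, chr12:52926470-52926589 and chr17:41382307-41382426. The KRT8 stretch lies inside the gene as counted (chr12:52897187-52949954), whose annotation begins further upstream. Which KRT8 start gave the reads was not tested. Capitals mark an inverted pair of heat shock element units in KRT5 and a TATA box in KRT34.
KRT5: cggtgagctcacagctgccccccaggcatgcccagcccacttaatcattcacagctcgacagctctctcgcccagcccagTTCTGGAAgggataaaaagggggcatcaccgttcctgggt
KRT8: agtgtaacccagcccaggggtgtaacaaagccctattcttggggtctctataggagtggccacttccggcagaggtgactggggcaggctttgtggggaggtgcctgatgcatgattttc
KRT34: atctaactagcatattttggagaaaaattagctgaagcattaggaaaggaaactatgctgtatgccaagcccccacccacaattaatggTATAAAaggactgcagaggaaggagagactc

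RefSeq promoter entries, from 250 bases before to 50 after the start, were matched for 34 of the 55 members. Not matched were KRT1, KRT6A, KRT6B, KRT6C, KRT7, KRT13, KRT14, KRT15, KRT16, KRT17, KRT18, KRT19, KRT23, KRT72, KRT77, KRT78, KRT80, KRT81, KRT83, KRT86 and KRT222. The heat shock element is the sequence that HSF1 trimers bind, and it repeats the unit GAA in alternating orientation. A pair of units (GAANNTTC or TTCNNGAA, both strands) stood in 4 of 34 keratin promoters (11.8%), those of KRT5, KRT12, KRT20 and KRT24, against 13.7% of all 27305 promoters of the same length. In KRT5 the match TTCTGGAA begins 40 bases before the start. A run of 3 units was found in 0 of 34 keratin promoters and in 0.487% of all promoters. The TATA box TATAAA, searched on the gene's strand, stood in 18 of 34 keratin promoters (52.9%), against 7.71% of all promoters, and in KRT34 it begins 31 bases before the start. The AP-1 site TGANTCA, both strands, was in 0 of 34 keratin promoters and in 7.76% of all promoters. The shares describe mainly members at background. Of the matched members only KRT4, KRT5, KRT8, KRT9, KRT10, KRT34, KRT75 and KRT85 had enough reads to be tested. Among these, only KRT10 and KRT34 held the exact letters TATAAA and only KRT5 held the pair of heat shock units. Variants of the TATA box were not searched, so a promoter without these letters may still hold one. These are matches of letters, not measurements of binding.

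Of the 55 keratins, 32 were at background and were not tested: their highest count in a library was 3, and 15 of them had 0 counts in all 4 libraries. These were 20 hair keratins (KRT25, KRT26, KRT27, KRT28, KRT31, KRT32, KRT33A, KRT33B, KRT35, KRT36, KRT37, KRT38, KRT39, KRT40, KRT71, KRT72, KRT73, KRT74, KRT82 and KRT84), 9 suprabasal keratins (KRT1, KRT2, KRT3, KRT12, KRT24, KRT76, KRT77, KRT78 and KRT79), the simple keratins KRT20 and KRT23, and KRT222. KRT1, the type II partner of KRT10 in the spinous layer of skin, had 0, 0, 0 and 1 counts, so KRT10 was measured without it.

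Of the 23 tested keratins, 19 were lower in HSF1-pLVX cells, 3 were higher (KRT5, KRT15 and KRT4) and KRT13 did not pass the test. Beyond 2-fold, 16 were lower, where 14% of all tested genes were, and the same 3 were higher, where 14.9% were. A ratio over 2 in the same direction in both replicate numbers, taken on the deposited normalized values, held for 15 keratins that were lower, where 6.42% of the 22321 rows of that table were, and for KRT15 alone among those that were higher, where 5% were. The filter kept 6 of the 23 (KRT4, KRT9, KRT34, KRT75, KRT83 and KRT85) through 1 group only, so these had to differ between the groups to enter the test. Among the other 17, which met the minimum of 0.508 CPM in every library, 14 were lower, 2 were higher and 1 was not called, with a median log2 fold change of -1.54 beside 0.02 for all tested genes. In the same 14 keratins both HSF1-pLVX libraries lay below both wild type libraries, a separation that 41% of tested genes showed in this direction, and in KRT5 and KRT15 both lay above, as in 42.1% of tested genes.

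**Figure D1:**
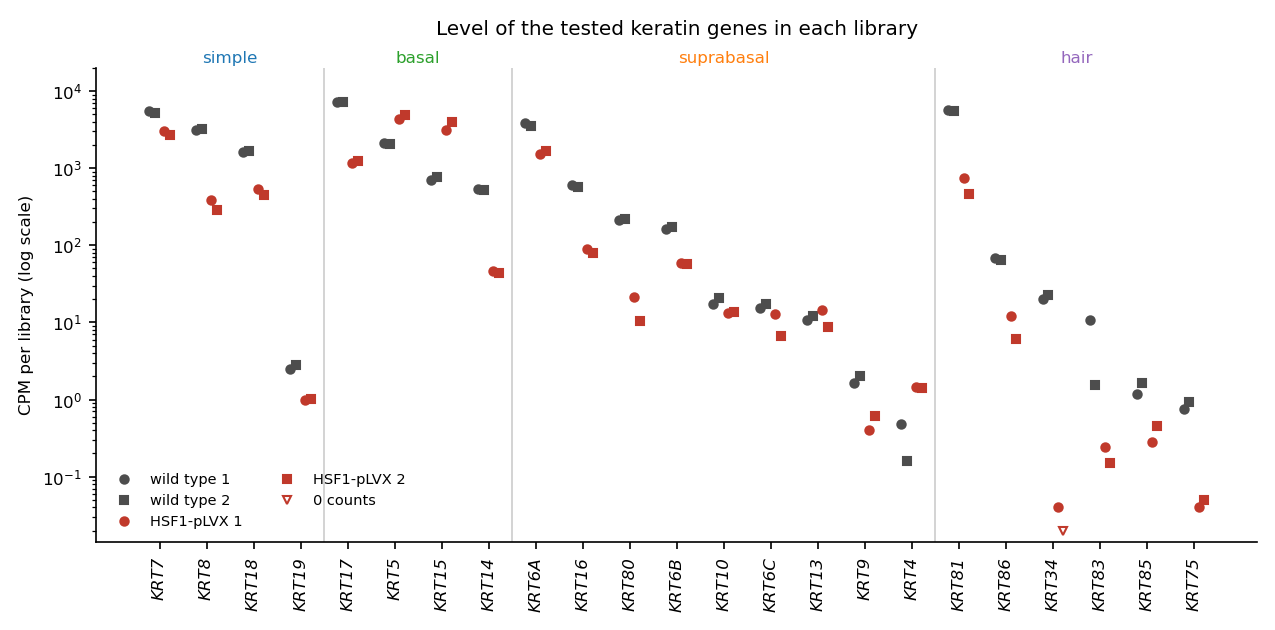
Level of the 23 tested keratin genes in each of the 4 libraries, in CPM on a log axis; circles are replicate 1 and squares replicate 2, grey for wild type and red for HSF1-pLVX, and the open triangle is a library with 0 counts. The red symbols lie below the grey ones in 19 genes, lie above them for KRT5, KRT15 and KRT4, and mix with them for KRT13.

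**Figure D2:**
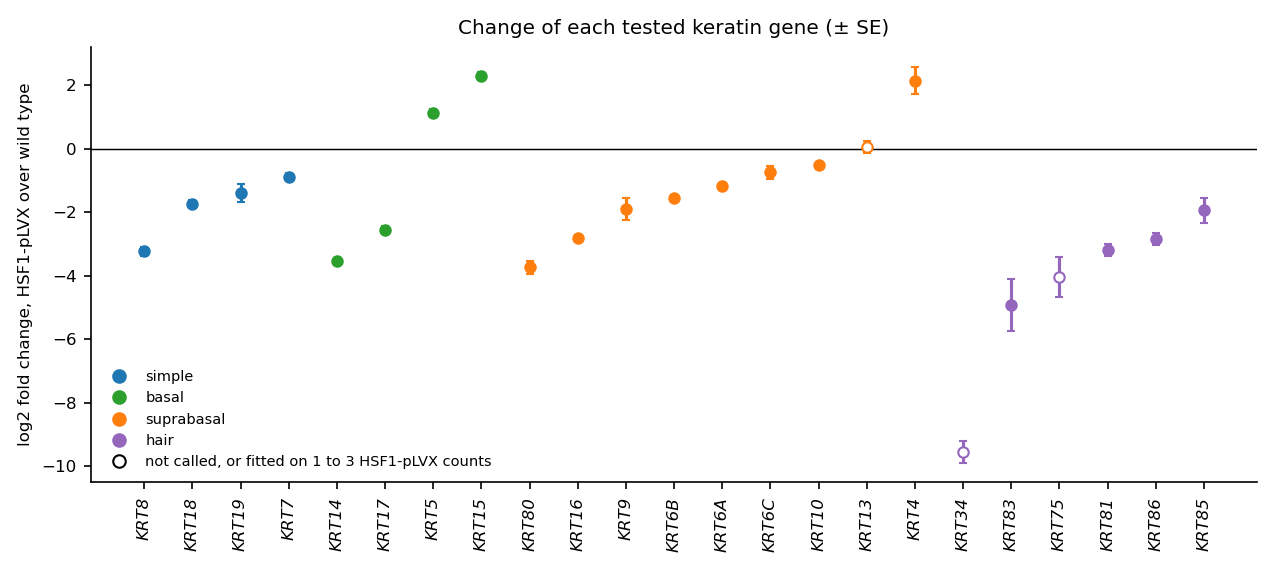
Log2 fold change of each tested keratin, HSF1-pLVX over wild type, with its SE and coloured by class; open symbols are KRT13, which was not called, and KRT34 and KRT75, whose fitted values rest on 1 and 2 HSF1-pLVX counts. The 4 simple and 6 hair keratins all lie below 0, and the basal keratins lie on both sides, KRT14 and KRT17 below and KRT5 and KRT15 above. Of the hair keratins, KRT34, KRT75, KRT83 and KRT85 passed the filter only through wild type, so their side of 0 was fixed by entry.

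The basal keratins changed in opposite directions. KRT5, the type II keratin of basal cells (chr12:52514575-52520687, minus strand, hg38), was at 2138 and 2088 CPM in the wild type libraries and at 4293 and 4890 in the HSF1-pLVX libraries. It rose by 1.12 ± 0.12 on the log2 scale (SE, adjusted p = 1.03e-06), or 2.17-fold, and the groups did not overlap. KRT15, a type I keratin of basal cells without a strict partner of its own (chr17:41513743-41522529, minus strand), was at 703 and 759 CPM in wild type and at 3143 and 4015 in HSF1-pLVX cells. Its log2 fold change of 2.29 ± 0.13 (adjusted p = 2.18e-09) was the highest of the tested keratins in the fit of all 4 libraries, with that of KRT4, 2.15 ± 0.43, within its error.

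KRT14, the usual type I partner of KRT5, went the other way. It was at 542 and 518 CPM in wild type and at 46.8 and 43.4 in HSF1-pLVX cells, a fall to which the fit gave a log2 fold change of -3.55 ± 0.10 (adjusted p = 4.12e-12). KRT17, a type I keratin of basal and myoepithelial cells, was the keratin with the most reads in wild type cells, at 7223 and 7165 CPM, and was at 1183 and 1256 CPM in HSF1-pLVX cells (log2 fold change -2.56 ± 0.12, adjusted p = 2.74e-10). In both genes the HSF1-pLVX libraries agree to within 10% of each other, far inside the distance between the groups. Summed over the 4 basal keratins, the level was 10611 and 10534 CPM in wild type and 8661 and 10202 in HSF1-pLVX cells, and the sum did not pass the test (log2 fold change -0.16 ± 0.13, adjusted p = 0.276).

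The ratio of the partners moved with them. Per kilobase of exon, KRT5 was 2.10 and 2.14 times KRT14 in the wild type libraries and 48.8 and 59.8 times KRT14 in the HSF1-pLVX libraries. KRT5 against KRT15, on the same scale, went from 5.01 and 4.53 times to 2.25 and 2.01 times. Exon length here is the summed exon length deposited with the counts, which for KRT15 is 7069 bases where its representative transcript (MANE Select) has 1712. With the transcript lengths in its place, the KRT5 to KRT15 ratio was 2.33 and 2.11 in wild type and 1.04 and 0.93 in HSF1-pLVX cells, so the level of the ratio depends on the length used while its fall does not.

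All 4 tested simple keratins fell, beside 33.2% of all tested genes, but not to the same extent. KRT8, the type II keratin of simple and luminal epithelia, was at 3158 and 3173 CPM in wild type and at 383 and 288 in HSF1-pLVX cells (log2 fold change -3.24 ± 0.14, adjusted p = 1.38e-10), which is 9.43-fold lower. Its type I partner KRT18 was at 1602 and 1675 CPM in wild type and at 530 and 454 in HSF1-pLVX cells, 3.33-fold lower (log2 fold change -1.73 ± 0.11, adjusted p = 6.28e-09). KRT8 was 1.56 and 1.5 times KRT18 in wild type and 0.57 and 0.50 times KRT18 in HSF1-pLVX cells per kilobase of the representative transcripts. With the deposited exon lengths these ratios were 0.92 and 0.89 in wild type and 0.34 and 0.30 in HSF1-pLVX cells.

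KRT7, the other type II keratin of glandular epithelia, was at 5462 and 5190 CPM in wild type and at 3046 and 2673 in HSF1-pLVX cells. It fell by 0.90 ± 0.12 on the log2 scale (adjusted p = 1.16e-05), the smallest change among the simple keratins, and with KRT5 it made up most of the type II reads of HSF1-pLVX cells. KRT19, a type I keratin of luminal cells, was scarce in both groups, at 2.50 and 2.80 CPM in wild type and 0.996 and 1.01 CPM in HSF1-pLVX cells (log2 fold change -1.40 ± 0.28, adjusted p = 5.07e-04).

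Some simple keratin genes share exon sequence. KRT8 and KRT18 lie on opposite strands and share 525 exon bases, and KRT7 shares 282 with the antisense gene KRT7-AS. Whether the counting used strand is not given in the sources used here, so reads of these bases cannot be assigned to 1 gene. KRT7-AS had 642 and 758 counts in wild type and 1396 and 858 in HSF1-pLVX cells, and it rose by 0.40 ± 0.12 on the log2 scale (adjusted p = 0.00875) where KRT7 fell. KRT8 and KRT18 also have many processed pseudogenes. With these added to each gene the log2 fold changes were -3.22 ± 0.14 for KRT8 and -1.73 ± 0.11 for KRT18.

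Among the 9 tested suprabasal keratins, 7 fell, KRT4 rose and KRT13 did not pass the test. Of all tested genes, 33.2% were lower and 32.7% higher. KRT6A, a type II keratin induced in wounded epithelium, was at 3817 and 3514 CPM in wild type and at 1534 and 1680 in HSF1-pLVX cells (log2 fold change -1.19 ± 0.11, adjusted p = 4.22e-07). KRT16, its type I partner, was at 609 and 578 CPM in wild type and at 89.5 and 78.3 in HSF1-pLVX cells, a log2 fold change of -2.82 ± 0.10 (adjusted p = 3.52e-11). As with KRT8 and KRT18, the members of the pair fell by different amounts: per kilobase of exon, KRT6A was 5.30 and 5.14 times KRT16 in wild type and 14.5 and 18.1 times in HSF1-pLVX cells. KRT6A, KRT6B and KRT6C are near-identical copies between which reads can be split. KRT6B fell by 1.54 ± 0.09 on the log2 scale and KRT6C by 0.74 ± 0.21, and the sum of the 3 genes fell by 1.20 ± 0.11.

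KRT80, a type II keratin of many epithelia, had the largest fall among the tested suprabasal keratins. It was at 212 and 220 CPM in wild type and at 21.5 and 10.4 in HSF1-pLVX cells, with a log2 fold change of -3.74 ± 0.21 (adjusted p = 1.46e-09). The log2 fold change was -4.37 without HSF1-pLVX replicate 1 and -3.32 without HSF1-pLVX replicate 2. KRT10, the type I keratin of the spinous layer, fell by only 0.52 ± 0.12 (adjusted p = 0.00133), from 17.6 and 20.6 CPM to 13.1 and 13.5 CPM. KRT9, a keratin of palm and sole skin, had 31 and 38 counts in wild type and 10 and 12 in HSF1-pLVX cells.

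KRT4 and KRT13 form the filament pair of non-keratinizing mucosa such as the oesophagus, and they differed from each other. KRT4 had 9 and 3 counts in wild type and 37 and 28 in HSF1-pLVX cells, a rise of 2.15 ± 0.43 on the log2 scale (adjusted p = 5.52e-04) at a level near the minimum of the filter. The wild type libraries differed 2.97-fold from each other, and the log2 fold change was 3.13 without wild type replicate 1 and 1.56 without wild type replicate 2. KRT13 was at 10.7 and 12 CPM in wild type and at 14.5 and 8.61 in HSF1-pLVX cells (log2 fold change 0.04 ± 0.19, adjusted p = 0.858). The HSF1-pLVX libraries lay on both sides of the wild type libraries for KRT13.

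Hair keratins were present in wild type cells and all 6 that were tested fell, beside 33.2% of all tested genes. KRT34, KRT75, KRT83 and KRT85 passed the filter only through wild type, where they are high, so their entry fixed the direction, and of the 6 only KRT81 and KRT86 met the minimum in both groups. KRT81, a type II keratin of the hair cortex, was at 5694 and 5514 CPM in wild type, the second highest read level among the keratins, and at 754 and 467 in HSF1-pLVX cells (log2 fold change -3.20 ± 0.18, adjusted p = 2.15e-09). Per kilobase of exon it ranked 1 among the keratins of wild type cells and 6 among those of HSF1-pLVX cells. With representative transcript lengths it ranked 3 and 7. KRT86, its close paralog, was at 68.5 and 64.9 CPM in wild type and at 12 and 6.04 in HSF1-pLVX cells (log2 fold change -2.86 ± 0.19, adjusted p = 7.49e-09). For KRT86 the log2 fold change was -3.46 without HSF1-pLVX replicate 1 and -2.47 without HSF1-pLVX replicate 2. KRT83, another near-identical gene, had 203 and 29 counts in the wild type libraries and 6 and 3 in the HSF1-pLVX libraries, so that the wild type libraries differed 6.93-fold from each other. Its log2 fold change was -4.91 ± 0.82 (adjusted p = 1.05e-04), and -2.92 without wild type replicate 1 and -5.73 without wild type replicate 2. The sum of KRT81, KRT83, KRT86 and their pseudogene, which does not depend on how reads were split between them, had a log2 fold change of -3.19 ± 0.18.

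KRT34, a type I keratin of the hair cortex, had 378 and 418 counts in wild type and 1 and 0 in HSF1-pLVX cells. Its level, scaled to library size, was 959 times lower in HSF1-pLVX cells (95% interval 172 to 37907, exact conditional binomial, counting error only), with an adjusted p of 2.18e-11 from the edgeR fit, so that it was hardly detected at this depth. A second copy of KRT34 on an alternate contig had 51 and 23 counts in wild type and 0 in both HSF1-pLVX libraries. KRT75, a type II keratin of the companion layer of the hair follicle, had 14 and 17 counts in wild type and 1 in each HSF1-pLVX library, a ratio of 18.7 (95% interval 4.75 to 161). KRT85, a type II keratin of the hair matrix, had 22 and 30 counts in wild type and 7 and 9 in HSF1-pLVX cells (log2 fold change -1.94 ± 0.40, adjusted p = 6.40e-04). KRT34 was the only type I hair keratin tested, and in wild type cells KRT81 exceeded it 257- and 222-fold per kilobase of exon.

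Libraries of a group differed by gene. For the keratins above 100 CPM in wild type, the 2 wild type libraries differed from each other by at most 1.09-fold, and the 2 HSF1-pLVX libraries differed by up to 2.07-fold. The 2.07-fold difference was that of KRT80, and KRT81 and KRT8 differed 1.61-fold and 1.33-fold, each with HSF1-pLVX replicate 2 lower, while KRT15 and KRT5 were 1.28-fold and 1.14-fold higher there. Among scarcer keratins, HSF1-pLVX replicate 2 was 1.98-fold lower for KRT86, 1.91-fold lower for KRT6C and 1.68-fold lower for KRT13, and 1.62-fold higher for KRT85 and 1.52-fold higher for KRT9. KRT83 and KRT4 went the other way, with wild type libraries 6.93-fold and 2.97-fold apart and HSF1-pLVX libraries 1.58-fold and 1.05-fold apart. Some of these differences rest on few counts, where counting error is large. In HSF1-pLVX replicates 1 and 2, KRT85 had 7 and 9 counts, KRT9 had 10 and 12, and KRT83 had 6 and 3. The fall of KRT6C and that of KRT83 lost the call when HSF1-pLVX replicate 2 was left out (adjusted p = 0.104 and 0.107).

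Keratins as a whole made up 3.03% and 3.05% of all counts in the wild type libraries and 1.57% and 1.6% in the HSF1-pLVX libraries. With 2 libraries against 2, the smallest p an exact two-sided permutation test allows is 0.333, which this share reached. In the fit across genes, with the sum in place of the members, the log2 fold change was -1.001 ± 0.13 (adjusted p = 8.85e-06). Type I and type II sums fell side by side. The type I sum was at 10736 and 10759 CPM in wild type and at 5019 and 5870 in HSF1-pLVX cells (log2 fold change -0.98 ± 0.12, adjusted p = 6.67e-06), and the type II sum was at 20751 and 19965 CPM and at 10110 and 10079 (log2 fold change -1.01 ± 0.12, adjusted p = 4.66e-06).

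**Figure D3:**
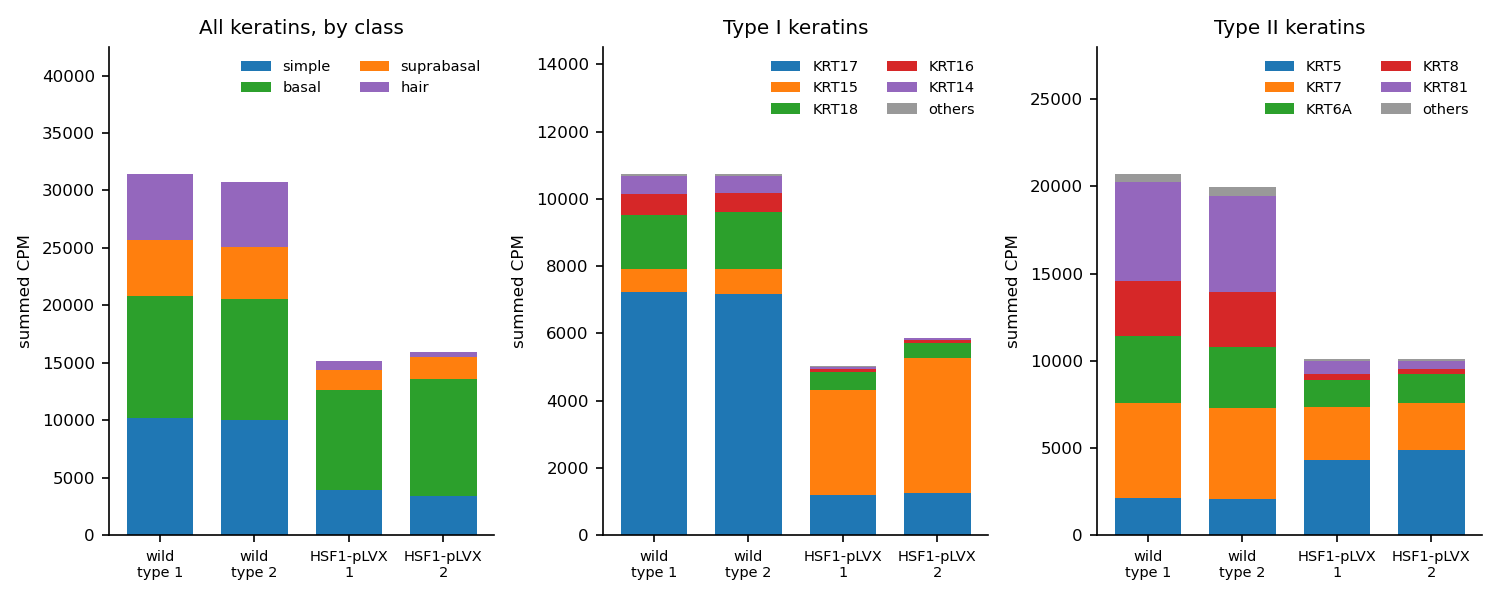
Summed CPM of the tested keratins in each library, stacked by class (left), by gene for type I (middle) and by gene for type II (right). The totals are 31473 and 30710 CPM in wild type and 15138 and 15951 CPM in HSF1-pLVX cells, and KRT15 and KRT5 take the largest part of the type I and type II bars in HSF1-pLVX cells in place of KRT17 and KRT81.

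The make-up of the pool turned over. By counts, KRT17 held 67.3% and 66.6% of type I counts in wild type and 23.6% and 21.4% in HSF1-pLVX cells, while KRT15 held 6.55% and 7.05% in wild type and 62.6% and 68.4% in HSF1-pLVX cells. Among type II counts KRT5 held 10.3% and 10.5% in wild type and 42.4% and 48.5% in HSF1-pLVX cells, and KRT81 held 27.5% and 27.6% in wild type and 7.45% and 4.63% in HSF1-pLVX cells. Per kilobase of exon KRT17 held 72.0% and 71.7% in wild type and 40.8% and 39.1% in HSF1-pLVX cells, and KRT15 held 2.51% and 2.72% in wild type and 38.9% and 44.9% in HSF1-pLVX cells, so that KRT17 still led in HSF1-pLVX replicate 1. On that scale KRT5 held 7.43% and 7.56% of type II in wild type and 36.3% and 42.5% in HSF1-pLVX cells, and KRT81 held 44% and 44.4% in wild type and 14.2% and 9.02% in HSF1-pLVX cells. By class and per kilobase of exon, hair keratins were 28.1% and 28.0% of the pool in wild type and 10.2% and 6.21% in HSF1-pLVX cells, and basal keratins 34.5% and 35.1% in wild type and 49.5% and 56.3% in HSF1-pLVX cells. Simple keratins were 21.5% and 21.7% of the pool in wild type and 24.7% and 21.2% in HSF1-pLVX cells on that scale. With representative transcript lengths simple keratins were 35.0% and 35.2% in wild type and 30.1% and 24.8% in HSF1-pLVX cells, so their share gave no direction that held for both lengths. Suprabasal keratins were 15.8% and 15.2% in wild type and 15.6% and 16.3% in HSF1-pLVX cells per kilobase of exon. With representative transcript lengths they were 12.1% and 11.6% against 9.40% and 9.53%, so their share gave no such direction either. The ratio of type I to type II per kilobase likewise depended on the length: it was 0.59 and 0.61 in wild type and 0.42 and 0.47 in HSF1-pLVX cells with the deposited exon lengths, and 0.65 and 0.67 against 0.61 and 0.72 with representative transcripts.

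Some neighbouring genes of a cluster went in opposite directions, but most tested neighbours shared a direction. On chromosome 12, where 27 members lie within 784 kb, 14 were tested. KRT5 rose while KRT6A, the nearest tested keratin, 21.3 kb away, fell, and KRT6B, KRT6C, KRT7, KRT75, KRT80, KRT81, KRT83, KRT85 and KRT86 beyond it fell too. KRT4, the next tested keratin on the other side of KRT5, 286 kb away, rose with it. KRT8 and KRT18, beyond KRT4, both fell. On chromosome 17, 28 members lie within 970 kb and 9 were tested. KRT15 rose, KRT19 lies 1.09 kb from it and fell, and KRT13, 8.04 kb away on the other side, was not called. KRT9, KRT14, KRT16 and KRT17, the tested keratins beyond KRT19, fell.

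**Figure D4:**
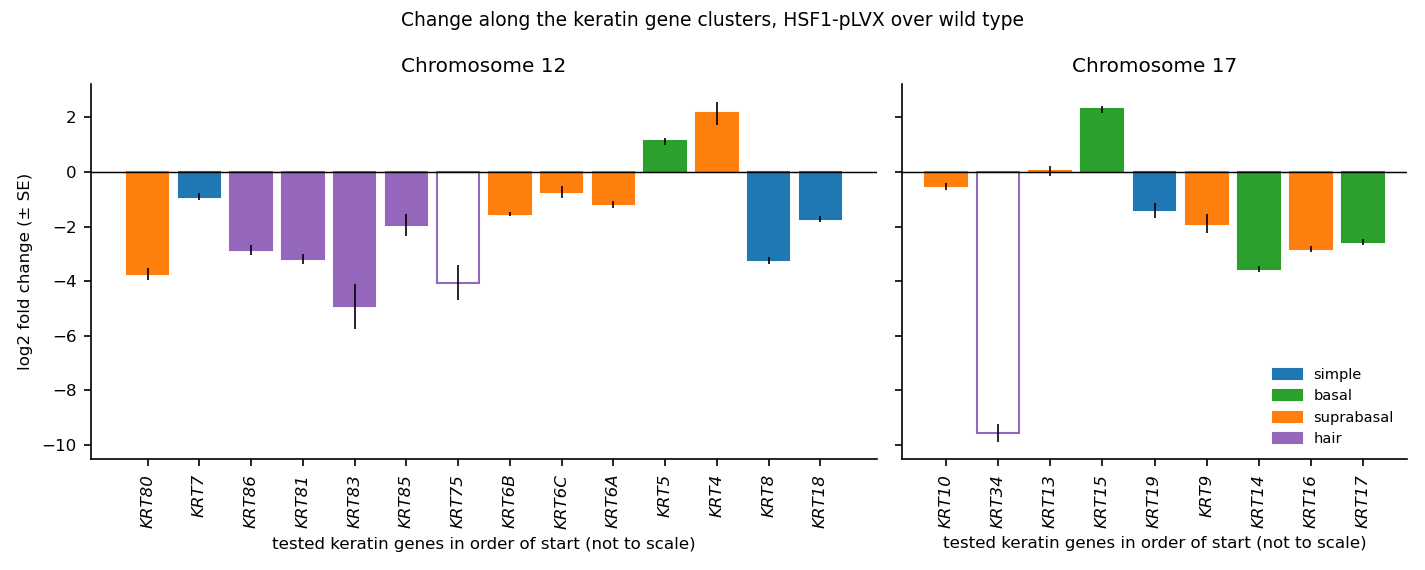
Log2 fold change with its SE for the tested keratins in their order along chromosome 12 (left) and chromosome 17 (right), bars starting at 0 and coloured by class; open bars are KRT75 and KRT34, fitted on 2 and 1 HSF1-pLVX counts. KRT5 and KRT4 stand above 0 between genes that fell, and KRT15 stands above 0 between KRT13 and KRT19.

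Other intermediate filament genes were called in both directions. Of 15 genes, 9 were tested, 3 were higher, 1 was lower and 5 were not called, where 32.7% of all tested genes were higher and 33.2% lower. VIM, the vimentin of mesenchymal cells, was at 10.7 and 13.9 CPM in wild type and at 46.6 and 50.5 in HSF1-pLVX cells (log2 fold change 1.98 ± 0.12, adjusted p = 3.38e-09). Its level stayed far under that of KRT5 and KRT15 in the same libraries. The B-type lamins of the nucleus also rose, LMNB1 by 2.10 ± 0.13 and LMNB2 by 1.15 ± 0.09 on the log2 scale. INA, a neuronal filament gene chosen for mention after its values were seen, fell from 15 and 17 counts to 0 in both HSF1-pLVX libraries, at least 6.34-fold lower against a floor of 3 counts per library. INA, the 1 gene called lower, passed the filter only through wild type, so its direction was fixed by entry. Lamin A (LMNA) was at 448 and 414 CPM in wild type and 361 and 394 in HSF1-pLVX cells, and was not called (adjusted p = 0.091).

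Of 15 genes for proteins that link or bundle filaments, 14 were tested, 8 fell and 4 rose, beside 33.2% of all tested genes lower and 32.7% higher. HRNR, 1 of these 4, had 4 and 5 counts in wild type and 20 and 23 in HSF1-pLVX cells. It passed the filter only through HSF1-pLVX cells, so its direction was fixed by entry. The number that rose was 1 to 3 with a library left out. JUP, the plakoglobin of desmosomes and adherens junctions, was at 1424 and 1391 CPM in wild type and at 375 and 385 in HSF1-pLVX cells (log2 fold change -1.89 ± 0.10, adjusted p = 1.01e-09). EPPK1, the keratin-binding epiplakin, fell by 3.75 ± 0.12 and FLG, the filaggrin that bundles keratin in cornifying skin, by 3.14 ± 0.26 on the log2 scale. DST, whose epithelial product BPAG1e anchors basal keratins to hemidesmosomes, rose by 0.51 ± 0.11 (adjusted p = 0.001), and TCHP, a keratin-binding protein, by 0.25 ± 0.10 (adjusted p = 0.0426). The rise of DST was not called without HSF1-pLVX replicate 2 (adjusted p = 0.101), and that of TCHP was lost under most alternatives. The median log2 fold change of the tested members was -0.75, beside 0.02 for all tested genes.

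Among 19 epithelial transcription factors, 18 were tested, 9 fell, 3 rose and 6 were not called, with a median log2 fold change of -0.43 (0.02 for all tested genes, of which 33.2% were lower and 32.7% higher). The number that rose was 2 in 3 of the 4 fits that leave out a library. TP63, the p53 family member that maintains basal cells and drives basal keratins, was at 10.4 and 8.99 CPM in wild type and at 106 and 110 in HSF1-pLVX cells (log2 fold change 3.48 ± 0.10, adjusted p = 5.08e-12). CEBPB, which acts in epidermal differentiation, rose by 0.41 ± 0.08 on the log2 scale (adjusted p = 6.53e-04). OVOL1, GRHL1 and POU2F3, which act in epithelial differentiation, fell by 3.08 ± 0.14, 1.71 ± 0.15 and 2.44 ± 0.31 on the log2 scale.

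Of 8 regulators of hair keratins, 5 were tested, 3 fell and 2 rose, beside 33.2% of all tested genes lower and 32.7% higher. HOXC13, which binds hair keratin promoters, was at 22.4 and 19.2 CPM in wild type and at 9.48 and 7.65 in HSF1-pLVX cells (log2 fold change -1.27 ± 0.14, adjusted p = 1.40e-06). MSX2 and DLX3 fell by 1.69 ± 0.15 and 1.26 ± 0.19, and FOXQ1 and MSX1 rose by 0.63 ± 0.12 and 0.76 ± 0.20 on the log2 scale. FOXN1, FOXE1 and LEF1 were too low to test. Keratin-associated proteins, the matrix partners of hair keratins, were at background: of 94 genes 0 were tested, and the highest count in a library was 4.

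Markers of other states moved beside the keratins, and their part in the keratin results was not tested. These lists are small, and of all tested genes 33.2% were lower and 32.7% higher. Of the 6 luminal markers 4 were tested: GATA3, MUC1 and FOXA1 fell, by 2.28 ± 0.09 for GATA3 and 1.38 ± 0.10 for MUC1, and ESR1 rose by 1.65 ± 0.21 at a level below 11 CPM, while PGR had 0 counts. The luminal markers summed to 618 to 667 CPM in wild type and to 219 to 259 in HSF1-pLVX cells. The 5 mammary epithelial markers summed to 1825 to 1844 CPM in wild type and 1665 to 1755 in HSF1-pLVX cells, with EPCAM and CDH1 lower and EGFR, ITGA6 and TP63 higher. Of 4 myoepithelial markers, OXTR and CNN1 fell, ACTA2 was not called and MYH11 had 0 counts, and their sum was 29.5 to 32.2 CPM in wild type and 18.6 to 23.2 in HSF1-pLVX cells. Cornified keratinocyte markers were split, IVL and FLG lower, SPRR1B higher, TGM1 not called and LOR at 0, and they summed to 274 to 303 CPM in wild type and 141 to 148 in HSF1-pLVX cells. Of 9 fibroblast markers, COL1A2, COL3A1, LUM and THY1 had at most 3 counts in every library, and PDGFRA and PDGFRB were too low to test. FAP fell by 2.35 ± 0.12 and COL1A1 was not called (log2 fold change 0.19 ± 0.17). DCN had 4 counts in the wild type libraries and 181 in the HSF1-pLVX libraries, a ratio of 37.6 (95% interval 14.4 to 139). DCN passed the filter only through HSF1-pLVX cells and CNN1 only through wild type, so entry fixed the direction of both. The list summed to 199 to 227 CPM in wild type and 48.9 to 59.9 in HSF1-pLVX cells. Most of that sum was FAP, at 191 and 216 CPM in wild type and 44.9 and 35.0 in HSF1-pLVX cells. Blood markers summed to at most 0.54 CPM and endothelial markers to at most 1.41 CPM in any library. In bulk RNA, fewer cells with a keratin and less of its RNA per cell cannot be told apart.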

How the data were processed

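RNA-seq counts per gene of 2 wild type and 2 HSF1-pLVX libraries were analysed, grouped by their labels. The authors deposited raw counts over the genes of GENCODE release 26. Their processing notes name HISAT2 2.0.5 for the alignment of read pairs (build hg38), SAMtools 1.13 and featureCounts 1.6.5. How strand and reads with several matches were counted is not given in the sources used here. The deposited second table holds DESeq2-normalized values on a log2-like scale and was used only to find the members by symbol and for the study's rule of a ratio over 2 in both replicate numbers. Gene names for the counts came from GENCODE release 44, and 10 keratin symbols have a second row from an alternate contig, which is kept out of the member counts.

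Genes were filtered with edgeR's filterByExpr (at least 10 counts at the median library size in 2 libraries), scaled with TMM and fitted with edgeR's quasi-likelihood test without a replicate block, with Benjamini-Hochberg adjustment over all 15830 tested genes. Each SE is the log2 fold change divided by the root of the F statistic. Sums of keratins replaced their members before the fit. Alternatives were RLE or no scaling, no filter, DESeq2's Wald test, the replicate block, leaving out each library, a 2-fold threshold, paralogs summed and other gene lengths. On data simulated for this comparison, 97.1% of 2-fold changes and 100% of 4-fold changes were recovered among 15422 genes. The changed genes were drawn above a minimum level, with the same dispersion for every gene and far fewer changes than in the data. The recovery therefore does not carry over to scarce keratins or to those whose libraries of a group lay far apart. Keratin members and all gene lists were chosen with earlier results of these data known. Every keratin was accounted for by symbol. From each other list, up to 3 called genes per direction were named, where both libraries of the group with the higher level held 50 counts or more, with VIM, TP63 and HOXC13, and markers and low genes outside this rule were added with their values seen. One gene of the lists is not reported here. Intervals cover counting error only.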

Additional observations from a re-analysis of the deposited data

How the results depend on the processing

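The alternatives gave 243 values for the tested keratins, where the sum of a paralog group was counted for each of its tested members. Of these, 241 kept their direction and their side of the threshold, or stayed uncalled for KRT13. The 2 that lost the call were KRT6C (-0.36) and KRT83 (-4.66) without HSF1-pLVX replicate 2. A sum is not a value of each member. The sum of KRT14, KRT16, KRT17 and their pseudogenes changed by -2.62 ± 0.12, where KRT14 alone changed by -3.55 ± 0.10. The number of keratins called higher was 3 in every refit and with 2-fold added, and fell to 1 (KRT15) under the study's ratio rule on the deposited values, which called 5% of its 22321 rows higher and 6.42% lower. KRT5 and KRT4 did not reach that ratio in both replicate numbers. The number called lower was 17 to 19 in the refits, 16 with 2-fold added and 15 under the ratio rule. The correlation of same-numbered deviations was 0.00014 over all tested genes and -0.11 over genes above 8 CPM. With 2 libraries per group, it cannot decide whether same-numbered libraries were grown or handled together. With the replicate block 3 keratins were higher and 19 lower, among 5138 and 5171 of all genes, and with the numbers crossed 3 and 19, among 5429 and 5487.

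Shares of the pool moved with the length used. The type I to type II ratio was 0.53 and 0.54, in wild type and HSF1-pLVX cells in turn, on counts without length and 0.66 and 0.66 with representative transcripts. On counts without length the simple share was 32.6% and 23.8%, the basal share 33.99% and 60.6%, the suprabasal share 15.1% and 11.6% and the hair share 18.3% and 4.02%, in wild type and HSF1-pLVX cells in turn. With representative transcripts the simple share was 35.1% and 27.5%, the basal share 36.4% and 59.2%, the suprabasal share 11.9% and 9.47% and the hair share 16.7% and 3.85%. Adding pseudogenes put the simple share of wild type at 22.1%. Counts of called genes in the small lists moved by 1 to 3 genes. Leaving out a library gave 1 to 2 other filament genes lower, 1 to 3 linker genes higher, 1 to 2 myoepithelial markers lower, 1 to 2 fibroblast markers higher and 0 to 1 endothelial markers higher. DESeq2 called 1 linker gene and 1 hair keratin regulator higher, the fit without a filter called 2 fibroblast markers and 1 endothelial marker higher, and the crossed numbers gave 2 other filament genes lower. The cause of these moves was not tested. The 32 untested keratins had 0 to 3 counts in each library, and a fall or a small change of those genes could not be seen at this depth.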
